A study of Mus musculus with 6 samples.

Results

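The 7 collagen genes examined in mouse liver encode chains outside the large fibril-forming collagens: Col6a1, Col6a2 and Col6a3 of collagen VI, Col8a1 of collagen VIII, and Col12a1, Col14a1 and Col16a1 of the fibril-associated group. They were selected by gene symbol, and all 7 were found among the 40481 genes of the expression table. Liver RNA was sequenced from C57BL/6 mice of both groups, which carried the same conditional Mttp allele and the same transgene, in which the Villin promoter drives a tamoxifen-activated Cre recombinase (Mttp f/f Villin Cre ERT2). Mttp-IKO mice received tamoxifen at 50 µg per g body weight per day for 5 days, which deletes Mttp in the intestinal epithelium, and control littermates received vehicle, so that tamoxifen exposure and the deletion cannot be told apart. The labels call the controls wild type. Per the study's methods, male mice aged 12 to 16 weeks were fed a methionine/choline-deficient (MCD) diet, a model of steatosis with fibrogenic injury, for 3 weeks, starting 3 weeks after the injections, and livers were taken after a fast (4 h per the labels, up to 6 h per the methods). Each group comprised 3 pools that combined the RNA of 3 to 4 mice per the methods, while the design text speaks of 12 livers without making clear whether this is per genotype. A replicate is thus several animals, and p-values measure the spread between pools and not between mice. The comparison asked how liver transcripts differed when chylomicron assembly in the intestine was blocked during MCD feeding.

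Collagens are trimers whose chains wind into a triple helix. Collagen VI is assembled from 3 different chains into beaded microfilaments that surround cells and link them to the matrix, and it accumulates in scarred liver. Collagen VIII is a short-chain collagen that forms open networks around vessels, and collagens XII, XIV and XVI carry interrupted helices and sit on or between collagen fibrils, whose spacing and cohesion they adjust. In the liver, stellate cells, portal fibroblasts and vascular smooth muscle cells are the main producers of these matrix proteins.

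The pools held 25271585 to 36238734 reads on genes, and 3 reads, the limit that a count of 0 allows, correspond to 0.0828 to 0.119 CPM (reads scaled to the size of each library), counting error only. Hepatic Mttp, which the intestinal Cre should leave intact, was 150.4 ± 52.2 CPM (SD, n = 3) in controls and 145 ± 15.95 CPM in Mttp-IKO (adjusted p = 0.926), so liver RNA does not check the intestinal deletion. Striated muscle markers summed to 956 CPM in control pool 2 and 126 CPM in control pool 1, against 0.545 to 1.52 CPM over the other 4 pools. Mttp-IKO pool 3 held 0.290% small RNA reads against 1.92% to 3.51% elsewhere, and 17.7% of its protein-coding reads lay on genes under 2000 nt against 23.5% to 24.7%. The calls of the 7 collagens and of their network are given with and without each pool.

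All 7 collagens were lower in every Mttp-IKO pool than in any control pool, and 6 of the 7 passed the test. Their log2 fold changes ran from -2.70 for Col6a3 to -1.58 for Col6a1, with a median of -1.82, where the median over all 17287 genes tested was 0.01. Of all genes tested, 3.09% were called lower and 0.92% higher in Mttp-IKO (edgeR, adjusted p threshold 0.05), against 6 and 0 of the 7 collagens. For 16.5% of all genes tested, every Mttp-IKO pool lay below every control pool, as it did for 7 of the 7 collagens. With DESeq2, 7 of the 7 were called lower against 7.75% of all genes. Each of the 7 reached a two-sided exact permutation p of 0.1, the smallest that 3 pools a group allow. In whole liver RNA, fewer cells of a type and less RNA per cell cannot be told apart.

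**Figure D1:**
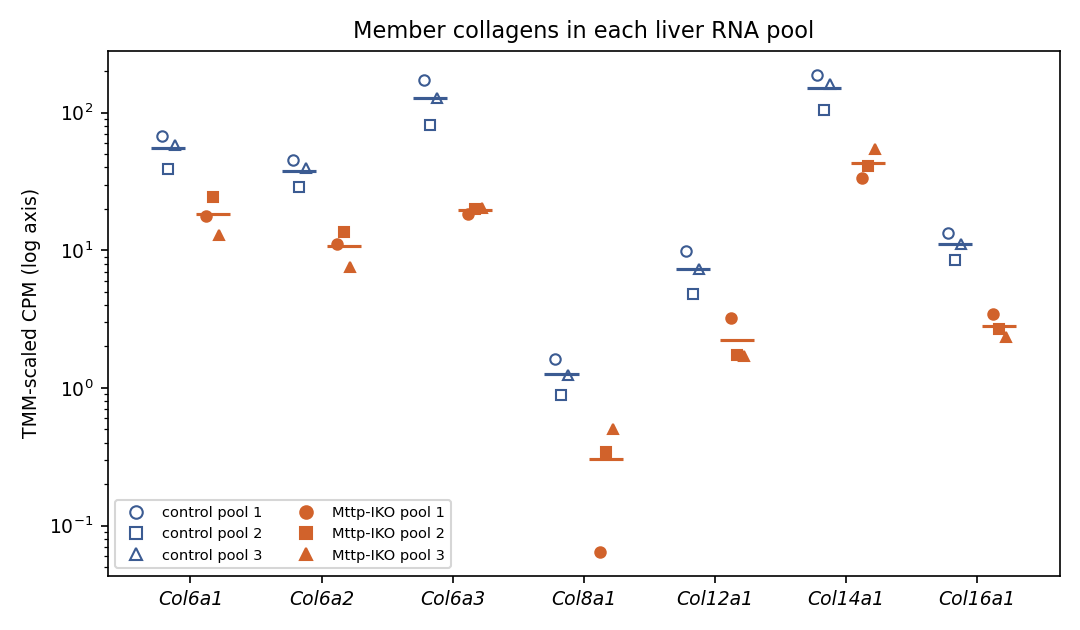
CPM after trimmed-mean (TMM) scaling (log axis) of the 7 collagens in each pool, with open blue symbols for the 3 control pools, filled orange symbols for the 3 Mttp-IKO pools and bars for the group means. The Mttp-IKO symbols lie below the control symbols for every gene, and control pool 1 is the highest and control pool 2 the lowest of the controls each time.

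Collagen VI was read from a pair of neighbouring genes and the third on another chromosome. Col6a1 (ENSMUSG00000001119, GRCm38 chr10:76708792-76726168, minus strand) and Col6a2 (ENSMUSG00000020241, chr10:76595762-76623630, minus strand) lie 85161 bases apart with 0 annotated genes between them in the files. Col6a3 (ENSMUSG00000048126, chr1:90765923-90843971, minus strand) encodes the largest of the 3 chains, with 11963 nt of exons against 4380 and 8326 nt. A window ending just before the deposited start of each gene, from the RefSeq promoter table on GRCm38.p6, are shown for these 3 genes because their chains make 1 trimer and all 3 were called lower, and for Col8a1 because it held the most motif matches. RefSeq windows were matched for 5 of the 7 genes, and Col12a1 and Col14a1 had no entry. RefSeq places the start of Col6a1 inside the deposited gene model, so its window lies farther upstream of the RefSeq start than those of the other genes. Capitals mark CAGAC (the SMAD element) or GGGCGG (the GC box) on either strand.
Col6a1 (chr10:76726169-76726293, minus strand): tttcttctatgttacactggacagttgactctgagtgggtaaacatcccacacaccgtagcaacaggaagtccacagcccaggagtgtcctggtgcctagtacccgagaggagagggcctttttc
Col6a2 (chr10:76623631-76623755, minus strand): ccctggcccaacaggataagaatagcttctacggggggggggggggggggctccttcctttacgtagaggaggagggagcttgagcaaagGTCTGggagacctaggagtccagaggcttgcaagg
Col6a3 (chr1:90843972-90844096, minus strand): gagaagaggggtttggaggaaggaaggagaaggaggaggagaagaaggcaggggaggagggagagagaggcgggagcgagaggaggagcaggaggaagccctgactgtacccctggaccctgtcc
Col8a1 (chr16:57754738-57754862, minus strand): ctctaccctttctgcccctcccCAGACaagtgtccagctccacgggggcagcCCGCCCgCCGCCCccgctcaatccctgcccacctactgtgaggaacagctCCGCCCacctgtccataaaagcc

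No motif searched was shared by more than 2 windows. CAGAC was found in 2 of the 5 windows, Col6a2 and Col8a1, against 23.3% of 32851 windows of the same length. The 32851 windows end just before RefSeq starts and the 5 just before deposited starts, so their positions are not strictly alike. GGGCGG was found in 1 of the 5, Col8a1, which held 3 copies, against 26.9% of all windows. CCAAT was found in 1 of the 5, Col16a1, against 21.9%. The TATA box (TATAAA, 6.55% of all windows), the AP-1 site (TGANTCA, 3.6%) and the TEAD site (CATTCC, 6.1%) were found in 0 of the 5. Both strands were searched, and no match overlapped another. Purines on the gene's strand made up 79.2% of the Col6a3 window, 63.2% of Col6a2, 49.6% of Col6a1, 38.4% of Col16a1 and 36.8% of Col8a1, where the quartiles of all windows were 44.8% and 56.0%. A match is a description of the letters and not of a bound site.

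Col6a3 showed the largest difference of the 7. Its level was 172, 80.8 and 128 CPM in control pools 1, 2 and 3 and 18.3, 19.96 and 20.2 CPM in the Mttp-IKO pools. The control pools differed from each other by 2.13-fold at most, the Mttp-IKO pools by 1.10-fold, and the groups did not overlap. The mean fell from 127 ± 45.6 to 19.5 ± 1.002 CPM (SD, n = 3), a 6.51-fold difference with a log2 fold change of -2.70 (SE 0.27, 95% interval -3.33 to -2.07, adjusted p = 0.0111 by edgeR). The Mttp-IKO values rest on 481 to 582 reads per pool.

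Col6a1, for a short chain of the trimer, was read at 67.1, 39.3 and 58.5 CPM in control and 17.8, 24.3 and 12.9 CPM in Mttp-IKO. The lowest control pool lay above the highest Mttp-IKO pool, and both are numbered 2. The mean fell from 55.0 ± 14.3 to 18.3 ± 5.73 CPM, a log2 fold change of -1.58 (SE 0.28, 95% interval -2.23 to -0.94, adjusted p = 0.0293). Col6a2, the other short chain, was at 45.6, 28.6 and 39.7 CPM in control and 11.0, 13.5 and 7.55 CPM in Mttp-IKO, in the same order of pools as Col6a1 in both groups. The mean fell from 38.0 ± 8.58 to 10.7 ± 2.99 CPM, 3.55-fold (log2 fold change -1.82, SE 0.26, 95% interval -2.43 to -1.22, adjusted p = 0.0181).

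Col14a1 encodes the homotrimeric collagen XIV, which binds fibrils and decorin, and was the most abundant of the 7 (ENSMUSG00000022371, chr15:55307750-55520803, plus strand). It was at 189, 105 and 162 CPM in control and 33.4, 40.7 and 54.8 CPM in Mttp-IKO, with its highest Mttp-IKO value in pool 3, where Col6a1 and Col6a2 had their lowest. The mean fell from 152 ± 42.9 to 43.0 ± 10.9 CPM (log2 fold change -1.82, SE 0.27, 95% interval -2.45 to -1.19, adjusted p = 0.0192). Col16a1 encodes collagen XVI, which links fibrillar and microfibrillar networks (ENSMUSG00000040690, chr4:130047840-130099283, plus strand). Its levels were 13.3, 8.57 and 11.2 CPM in control and 3.45, 2.67 and 2.35 CPM in Mttp-IKO. The groups lay well apart, and the mean fell from 11.0 ± 2.38 to 2.82 ± 0.565 CPM (log2 fold change -1.96, SE 0.25, 95% interval -2.53 to -1.39, adjusted p = 0.0168).

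Col12a1 and Col8a1 were the least abundant and the least certain. Col12a1, for the stress-associated collagen XII of dense connective tissue (ENSMUSG00000032332, chr9:79598991-79718831, minus strand), was at 9.82, 4.82 and 7.28 CPM in control and 3.22, 1.75 and 1.72 CPM in Mttp-IKO. The lowest control pool and the highest Mttp-IKO pool were closer here than for Col6a3. The mean fell from 7.31 ± 2.497 to 2.23 ± 0.860 CPM (log2 fold change -1.71, SE 0.36, 95% interval -2.53 to -0.88, adjusted p = 0.0441). This call was lost with limma-voom (adjusted p = 0.0620) and after removal of length and GC trends (adjusted p = 0.0507). Col8a1, for a network chain of vessel walls (ENSMUSG00000068196, chr16:57624258-57754737, minus strand), was counted at 66, 32 and 40 reads in control and 2, 10 and 12 reads in Mttp-IKO. These correspond to 1.64, 0.887 and 1.25 CPM against 0.0645, 0.343 and 0.503 CPM, and the 2 reads of Mttp-IKO pool 1 carry an exact Poisson interval (95%) of 0.00762 to 0.227 CPM, unscaled. The groups did not overlap, but the difference did not pass the test (log2 fold change -2.08, SE 0.61, 95% interval -3.48 to -0.67, adjusted p = 0.0978 by edgeR), while DESeq2 gave an adjusted p of 0.0163.

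**Figure D2:**
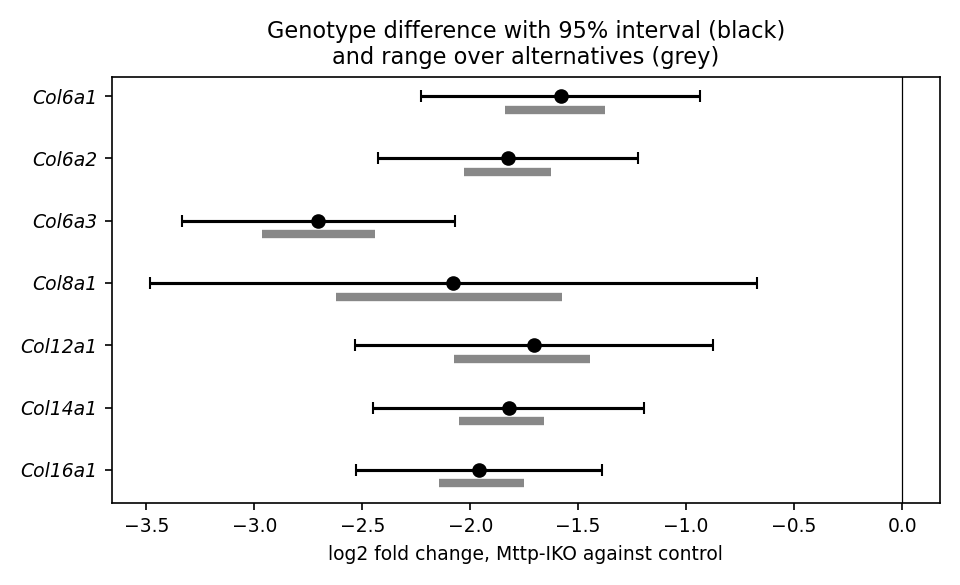
Log2 fold change of Mttp-IKO against control (x axis) for each collagen (y axis), with black points and bars for the edgeR estimate and its 95% interval and grey bars for the range over the alternative settings and the fits that left out a pool. No interval or range reaches 0, and Col6a3 lies farthest to the left at -2.70.

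The direction held in every fit, but the calls depended on the pools. Leaving out the muscle-marked control pool 2 left 6 of the 7 called, and leaving out Mttp-IKO pool 3, with few small RNA reads, left 5, with Col12a1 lost (adjusted p = 0.0710). Of all genes tested, 771 of 17784 and 562 of 17854 were called lower in these fits. Leaving out control pool 1 or control pool 3 left 1 call each time, Col6a3 (adjusted p = 0.0279 and 0.0470). Calls fell over the whole data too, to 15 of 17652 and 17 of 17869 genes called lower. Leaving out Mttp-IKO pool 1 left Col6a3 and Col16a1 (adjusted p = 0.0465 for both), where 32 of 17943 genes were called lower. Without Mttp-IKO pool 2, 0 of the 7 were called by edgeR. In that last fit 0 of all genes passed, and 3221 genes were at an unadjusted p under 0.05. The log2 fold change of Col6a3 stayed between -2.97 and -2.44 over these fits, and that of Col8a1 between -2.62 and -1.58.

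**Figure D3:**
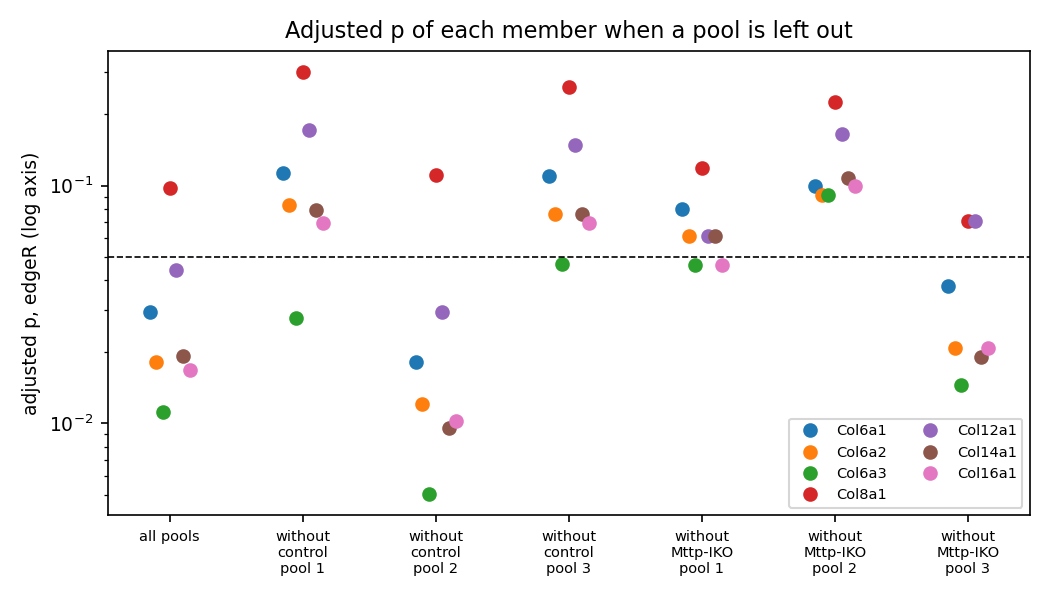
Adjusted p by edgeR (log axis) of each collagen with all pools and after leaving out each pool in turn (x axis), with the dashed line at 0.05. Col6a3, in green, stays under the line in all fits but that without Mttp-IKO pool 2, and Col8a1, in red, lies above it throughout.

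Levels were compared between genes per length, as RPKM, the CPM per kilobase of exon without TMM scaling. The comparison rests on the deposited exon lengths, which were 8326 nt for Col6a2 and 4380 nt for Col6a1. In control these genes were closer in TMM-scaled CPM, at 38.0 and 55.0. The lengths of the transcripts present in these livers were not examined. In control, Col14a1 was highest at 23.2 ± 7.41 RPKM, followed by Col6a1 at 13.4 ± 3.99 and Col6a3 at 11.4 ± 4.55 RPKM. Over the control pools each of these overlapped the next, as did Col12a1 and Col8a1, and the other neighbours in the order did not. Col6a2 followed at 4.88 ± 1.29, then Col16a1 at 1.75 ± 0.449, Col12a1 at 0.515 ± 0.197 and Col8a1 at 0.264 ± 0.0896 RPKM. The order was the same in Mttp-IKO, from 5.74 ± 1.44 RPKM for Col14a1 to 0.0552 ± 0.0406 RPKM for Col8a1. There Col6a3 was at 1.53 ± 0.0541 RPKM, with pools of 1.497 to 1.591, just above Col6a2 at 1.20 ± 0.311 RPKM, with pools of 0.8555 to 1.457. Col14a1 and Col6a1 were the neighbours whose Mttp-IKO pools overlapped.

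The make-up of collagen VI mRNA differed in its shares of Col6a1 and Col6a3. The size of each share rests on the deposited exon lengths. Col6a3 made up 40.9%, 35.2% and 37.1% of the summed RPKM of the 3 chains in control and 22.2%, 18.9% and 30.4% in Mttp-IKO. Col6a1 made up 43.6%, 46.8% and 46.4% in control and 58.7%, 62.8% and 53.2% in Mttp-IKO. Neither share overlapped between the groups (exact permutation p = 0.1 for each, the smallest possible), whereas the share of Col6a2 did overlap, at 15.5% to 18.0% in control and 16.4% to 19.1% in Mttp-IKO (exact permutation p = 0.3). Mttp-IKO pool 3 lay closest to the controls for Col6a1 and Col6a3.

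**Figure D4:**
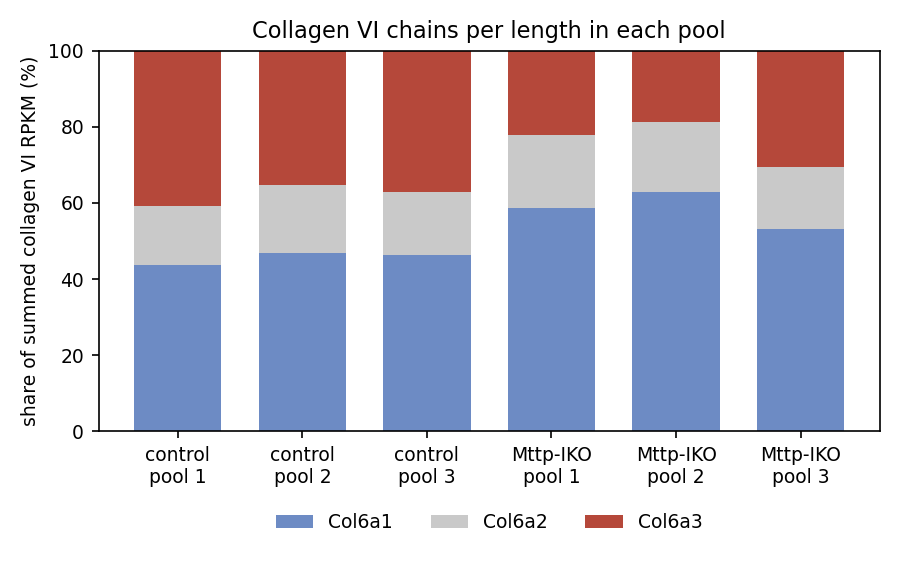
Share of each chain in the summed collagen VI RPKM (y axis, %) in each of the 6 pools. The Col6a3 share, in red, is 35.2% to 40.9% in the control pools and 18.9% to 30.4% in the Mttp-IKO pools.

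All 21 ratios between pairs of the 7 genes were compared within pools, as log2 ratios of RPKM. In 6 of the 21 the groups did not overlap, each at the smallest exact permutation p of 0.1, which becomes 0.35 after Benjamini-Hochberg adjustment. Of those 6, 5 involved Col6a3. The log2 ratio of Col6a3 to Col6a1 was -0.27 ± 0.16 in control and -1.32 ± 0.47 in Mttp-IKO, and that of Col6a3 to Col6a2 was 1.18 ± 0.21 and 0.38 ± 0.45. The difference in the ratio of Col6a3 to Col6a1 was -1.04 over all pools, -1.11 without control pool 2 and -1.30 without Mttp-IKO pool 3. Relative to Col6a3, Col12a1 was higher in Mttp-IKO by 0.92, Col14a1 by 0.83 and Col16a1 by 0.68. A gene's ratio to Col6a3 was higher in every Mttp-IKO pool for 92.4% of all genes tested, so the 5 ratios restate the size of the Col6a3 difference. The remaining ratio, Col6a2 to Col6a1, differed by -0.25, the smallest difference of the 6.

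The ratios varied less between control pools than between Mttp-IKO pools. For Col14a1 to Col6a1 the log2 ratio was 0.81, 0.74 and 0.79 in control and 0.23, 0.06 and 1.41 in Mttp-IKO. The 1.41 is that of Mttp-IKO pool 3, the pool with few small RNA reads. The SD was larger in Mttp-IKO for all 21 ratios, which share 7 genes and are not independent. The share of all genes with a larger SD in Mttp-IKO was not computed. Over all genes, replicate pairs with Mttp-IKO pool 3 differed most, with a mean chi-square per gene of 215 and 198. The other replicate pairs had 37.1 to 94.2. Among the 15 ratios without Col8a1, the largest SD was 0.23 in control and 0.84 in Mttp-IKO, where the counting error of a single log2 ratio was at most 0.30. The part of the lower read counts, or of Mttp-IKO pool 3, in the wider spread was not tested. The order of the pools behaved likewise: control pool 1 was highest and pool 2 lowest for 7 of the 7 genes. The Mttp-IKO pools were ordered differently among the genes. The control order is not particular to the 7, since Col1a1 and Col3a1 had it too, whereas Dcn and Tnxb did not. Its share over all genes was not computed.

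**Figure D5:**
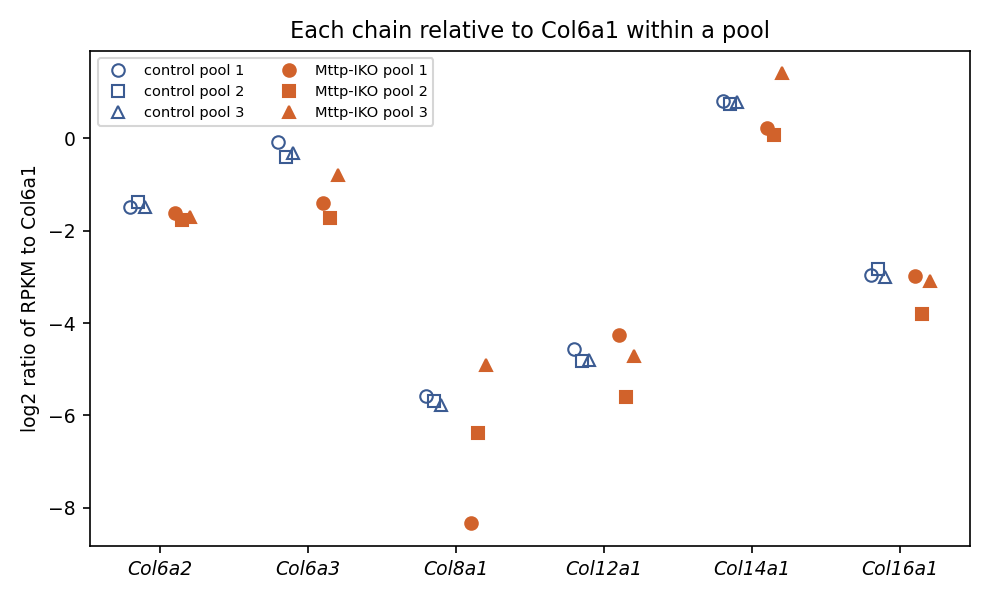
Log2 ratio of the RPKM of 6 collagens to that of Col6a1 in each pool (y axis), with open blue symbols for control and filled orange symbols for Mttp-IKO. The control symbols lie close together for each gene, and Col6a3 and Col6a2 are the genes whose groups do not overlap.

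Further genes of the collagen network were read from 4 lists. Of 15 fibril collagens and fibril-binding proteins, 14 had a negative log2 fold change and 11 were called lower (3.09% of all genes), with a median log2 fold change of -1.64 over the 15. Col1a1 and Col3a1, the main fibril chains of scar, had log2 fold changes of -3.72 and -3.93 (adjusted p = 0.0159 and 0.0111), and Col1a2 by 2.88 (adjusted p = 0.0141). The regulatory fibril chains Col5a1 and Col5a2 fell by 1.86 and 2.34. Tnc (tenascin C) fell by 3.78, Lum (lumican) by 1.81, Postn (periostin) by 1.64, Fmod (fibromodulin) by 1.58, Tnxb (tenascin X, which interacts with collagens XII and XIV) by 1.57 and Bgn (biglycan, which binds collagen VI) by 1.04. Decorin (Dcn), the binding partner of collagens VI and XIV, did not pass, at 261 ± 40.7 CPM in control and 192 ± 33.5 CPM in Mttp-IKO (adjusted p = 0.235). Fibronectin (Fn1) was higher in every Mttp-IKO pool without passing, at 2879 ± 385 and 4373 ± 554 CPM (adjusted p = 0.159).

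Among 17 genes for collagen folding, processing and cross-linking, 16 were tested, 11 had a negative log2 fold change and 6 were called lower (3.09% of all genes). They were the collagen chaperone Serpinh1 (log2 fold change -2.11, adjusted p = 0.0298), the procollagen processing genes Pcolce (-1.55) and Adamts2 (-1.61), and the cross-linking oxidases Lox (-1.99), Loxl1 (-2.32) and Loxl2 (-1.87). The procollagen C-proteinase gene Bmp1, named after its values were seen, was higher in every Mttp-IKO pool without passing, at 117 ± 15.6 CPM in control and 182 ± 9.13 CPM in Mttp-IKO (adjusted p = 0.0720). Of 12 receptors, 10 had a negative log2 fold change and 2 were called lower (3.09% of all genes). Antxr1, Antxr2, Cspg4, Ddr1 and Ddr2, 5 of the 12, were lower in every Mttp-IKO pool (16.5% of all genes). Antxr1, which binds collagen VI, was at 7.89 ± 1.96 CPM in control and 3.09 ± 0.980 CPM in Mttp-IKO (log2 fold change -1.35, adjusted p = 0.0480), and Ddr2, a fibrillar collagen receptor, at 17.7 ± 2.25 and 9.45 ± 1.13 CPM (-0.91, adjusted p = 0.0364). The integrin chain Itgb1, the most abundant receptor, was at 162 ± 11.6 and 157 ± 21.1 CPM (adjusted p = 0.884).

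Close relatives of the 7 genes were sparse. Of 12 relatives, 11 were analysed here, 5 were tested and 0 passed in either direction. Col6a5, an alternative to Col6a3 in the collagen VI trimer, was at 1.69, 5.41 and 2.34 CPM in control and 3.58, 0.686 and 0.755 CPM in Mttp-IKO (adjusted p = 0.480). Col6a6, another alternative chain, was at 1.43 ± 0.599 and 1.08 ± 0.403 CPM (adjusted p = 0.610), and Col10a1, which like Col8a1 is a short-chain collagen, at 3.02, 2.16 and 2.31 CPM in control and 2.06, 2.78 and 6.17 CPM in Mttp-IKO (adjusted p = 0.471). Col20a1 was at 1.17 ± 0.321 CPM in control and 2.53 ± 1.22 CPM in Mttp-IKO, with overlapping pools (log2 fold change 1.11, adjusted p = 0.180 by edgeR). Over the 4 lists, 19 of 48 tested genes were called lower and 0 higher by edgeR (3.09% and 0.92% of all genes). DESeq2 called 23 lower and 2 higher, against 1338 and 657 of all 17287 genes. Every Mttp-IKO pool lay below every control pool for 24 of the 48 (16.5% of all genes) and above for 2, Fn1 and Bmp1. The share of all genes that lay above was not computed. The 48 genes had a median log2 fold change of -0.90 where all genes tested had 0.01. Without control pool 2 the 19 calls became 21, all lower, and without Mttp-IKO pool 3 they became 18, of which 17 were lower and 1 higher. Without control pool 1, control pool 3, Mttp-IKO pool 1 or Mttp-IKO pool 2 they became 4, 1, 1 and 0. Of all genes tested, 15, 17, 32 and 0 were called lower in these fits.

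Against Col1a1, the log2 ratio of each of the 7 was higher in Mttp-IKO, by 0.95 for Col6a3 to 1.99 for Col6a1, a comparison chosen after the values were seen. The groups did not overlap for 6 of the 7 (exact permutation p = 0.1, adjusted 0.117). Col8a1 overlapped (exact permutation p = 0.4). A higher ratio to Col1a1 in every Mttp-IKO pool was found for 95.3% of all genes tested, so the count says no more than that these collagens fell less than Col1a1.

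Markers of matrix-producing cells and of some other cells differed between the genotypes. Their calls stand against 3.09% of all genes tested called lower and 0.92% called higher. The 12 stellate cell markers summed to 939 to 1120 CPM in control and 692 to 797 CPM in Mttp-IKO, with 4 lower (Lrat, Pdgfrb, Ngfr and Colec11). The 12 portal fibroblast and mesothelial markers summed to 53.3 to 68.2 and 15.9 to 33.2 CPM, with 3 lower (Fbln2, Dpt and Mfap4), and the 7 vascular smooth muscle markers to 58.0 to 90.6 and 21.7 to 28.6 CPM, with 4 lower (Myh11, Tagln, Smtn and Acta2). None of these 3 sums overlapped between the groups. Of single genes tested, 16.5% were lower in every Mttp-IKO pool than in any control pool. The 7 markers of recruited macrophages summed to 268 to 829 and 113 to 182 CPM, with 4 lower. Hepatocyte markers were higher in sum, at 54130 to 89640 and 108600 to 162000 CPM, with 0 of 6 passing. That sum is mostly albumin (Alb, 54150 and 104754 CPM on average), and Ttr of the same list was lower in every Mttp-IKO pool, at 3296 and 2252 CPM. Endothelial markers overlapped, at 410 to 445 and 393 to 452 CPM, with 0 of 7 passing, as did Kupffer cell markers, at 320 to 490 and 244 to 583 CPM, with 1 of 6 higher (Timd4), and cholangiocyte markers, at 69.8 to 195 and 49.0 to 94.4 CPM, with 0 of 6 passing. Of the small intestine list 5 of 6 markers were analysed here, and they overlapped in sum, at 1269 to 2433 and 803 to 2911 CPM. Of the 3 tested, 0 passed. That sum is mostly Apoa4 (1737 and 1721 CPM on average). Fabp2, at 36.1 and 20.8 CPM, was lower in every Mttp-IKO pool, and Vil1 was at 2.02 and 2.42 CPM. Cdx1, which defines the intestine, had at most 3 reads in a pool. No marker analysed was at 0 in every pool.

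Relative to the stellate cell marker sum, the summed CPM of the 7 collagens stood at -1.17, -1.81 and -1.44 (log2 ratio) in control and -2.99, -2.95 and -2.95 in Mttp-IKO (difference -1.49). The sum rests mostly on Reln, Dcn and Ecm1 (282, 261 and 199 CPM in control), whose log2 fold changes were -0.44, -0.44 and 0.04 without passing. Other stellate markers differed as much as the collagens, with log2 fold changes of -2.78 for Ngfr, -1.71 for Lrat and -1.65 for Colec11. The part of cell numbers in the difference was not tested. The profile over the 6 pools most like the mean of the 7 was that of Fhl2, a LIM domain protein, among 14287 genes, with a root mean square difference of 0.0938 on the log2(CPM + 0.5) scale. Fhl2 had 4 to 10 reads in the Mttp-IKO pools and a fitted log2 fold change of -3.21, beyond those of the 7, and the added 0.5 CPM shrinks such low values. Fam129b, Matn2 (a matrilin of the matrix), Colec11 (a collectin, also on the stellate cell list) and Srpx2 followed at 0.109 to 0.128. The 7 collagens themselves lay at 0.147 to 0.445. Fhl2 and the genes after it were picked as the closest of 14287, so the search itself favours distances smaller than those of the collagens.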

How the data were processed

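Liver RNA was measured by RNA-seq after ribosomal RNA depletion in 3 control and 3 Mttp-IKO pools, grouped and numbered by their labels. The authors aligned reads with STAR 2.5.1a to GRCm38 (Ensembl release 76) and deposited, per gene, the count of uniquely aligned, unambiguous reads from featureCounts 1.4.6-p5. The deposited CPM and RPKM were computed by the authors from these counts, the RPKM with a deposited exon length. Whether counting used the strand is not given in the sources used here. The table of all pools held the same counts with symbols, and its 276 repeated lines were dropped.

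Counts were filtered (filterByExpr, minimum 10, total 15), scaled by TMM (factors 0.898 to 1.11) and tested by edgeR 4.0.16 (glmQLFit, glmQLFTest) in R 4.3.3, and p-values were adjusted by Benjamini-Hochberg over 17287 genes, with a threshold of 0.05. CPM in the text is TMM-scaled. Single ratios were compared by two-sided exact permutation tests (scipy 1.17.1). The profile measure used log2(CPM + 0.5), centred per gene, over genes with an average log2 CPM of at least 0. The scripts were tested on simulated data. Pools held 25271585 to 36238734 reads, and intervals cover counting error only. No pair of replicates agreed within sampling noise.

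The named genes are the 7 collagens, the genes of 4 network lists (relatives, fibril, receptors, assembly) past the threshold or, where fewer than 3 passed, the most abundant up to 3, the 5 nearest profiles, Mttp and cell markers. Dcn, Fn1, Bmp1, Antxr2, Cspg4, Ddr1 and Col20a1, outside this rule, were named after their values were seen. The members and lists were chosen with earlier results of these data known. Alternatives were other scalings, DESeq2 1.42.0, limma-voom 3.58.1, robust dispersion, other filters and thresholds, protein-coding genes, the replicate block, removal of length and GC trends (loess span 0.3), and leaving out each pool. Relatives and markers without a value were not analysed here.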

Additional observations from a re-analysis of the deposited data

How the results depend on the processing

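All 7 collagens were lower in Mttp-IKO under each alternative that tested them. With at least 50 reads required in 3 pools Col8a1 was not tested. Of the 7, 5 to 7 were called under the other scalings, tests, filters and feature sets, 7 at an adjusted p threshold of 0.1 and 0 at 0.01, and 0 to 6 when a pool was left out, where fewer samples are fitted. Of all genes, 694 passed with edgeR, 1995 with DESeq2 and 428 with limma-voom, and 0 to 892 when a pool was left out. Of the network genes, 0 to 21 passed when a pool was left out. Scaling by total counts called 907 lower and 112 higher and moved the median of all genes by -0.18, and removal of length and GC trends called 475 lower and 389 higher and moved it by 0.11, against 535 and 159. In these fits 6 and 5 of the collagens were called.

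Same-numbered pools deviated together with correlations of 0.14, 0.11 and 0.01, and 5 of 6 correlated best with their own number. With 3 pools a group, these values cannot decide whether same-numbered pools share more than a number. With the replicate block, 592 genes passed (449 lower, 143 higher), with 6 of the 7 collagens and 17 network genes. The ratios between chains were computed again from counts without gene length and with each pool left out. Gene length cancels from a genotype difference in log2 ratios, and leaving out a pool of 3 moves a group mean by less than its SD. These alternatives therefore could not show a move beyond the spread between pools. Some ratios whose groups overlapped changed sign, such as Col12a1 to Col6a1 (-0.12 over all pools, 0.25 without Mttp-IKO pool 2). With TMM-scaled CPM per kilobase the levels per length moved by less than the spread between pools. The exception was Col6a3 in Mttp-IKO, which went from 1.53 to 1.63 (SD 0.0541). Pools of 3 to 4 mice hide the spread between mice, and 3 pools a group limit the adjusted p-values. The fold change of Col8a1 rests on 2 to 12 Mttp-IKO reads per pool.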
